A study of Mus musculus with 20 samples.

Results

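The seminal vesicle type grafts of the series fell into a probasin-rich and a probasin-poor class. They are tissue recombinants: mouse epithelium was joined to rat urogenital sinus mesenchyme (UGM) and grown as a graft in a host mouse. 12 of the 20 libraries are of the seminal vesicle type, 4 in each of 3 groups. In mNKX3.1+UTY_sh the seminal vesicle epithelium carried the construct labelled mNKX3.1 together with a hairpin labelled UTY_sh, in UTY_sh it carried the hairpin alone, and SVE was seminal vesicle epithelium that the labels call wild-type NKX3.1. The classes were chosen by Pbsn, the probasin gene: a library was placed in the rich class when its deposited log2 value of Pbsn was 13 or more, and in the poor class below that. 4 of the 12 libraries were rich and 8 were poor. The rich libraries were SVE replicate 1, UTY_sh replicates 2 and 3, and mNKX3.1+UTY_sh replicate 4, where the numbers only name a library within its group. The series also holds 4 libraries labelled mNKX3.1 (seminal vesicle epithelium with the construct but no hairpin, outside the rule that set the classes) and 4 labelled PE, grafts of unmodified prostate epithelium, which serve here as the measure of prostate expression.

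All 5 groups shared their background. Donors of the epithelium were 2 months old, the mesenchyme was from Sprague Dawley rats, doxycycline was in the drinking water for 3 months to switch on the pTRIPZ vector, and grafts were taken 3 months after implantation. The labels give the mouse background as hybrid 129/SvImJ and C57Bl/6J, whereas the protocol speaks of C57Bl/6J donors. Whether the m of mNKX3.1 stands for mouse or for mutant is not given in the labels, and neither is the number of animals behind a group. The p-values below therefore measure the spread between these libraries, which may be technical. The table does not separate rat reads that map to mouse genes from mouse reads. Depth was 23620000 to 29810000 reads in the rich libraries, 20260000 to 25700000 in the poor ones, 14930000 to 20820000 in PE and 15470000 to 21860000 in mNKX3.1, as recovered from the deposited values, so the depths of the classes overlapped.

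The prostate grows out of the urogenital sinus, which is of endodermal origin, whereas the seminal vesicle grows out of the Wolffian duct, which is mesodermal. Urogenital sinus mesenchyme can direct an epithelium towards prostate, and androgens acting through the androgen receptor then maintain its secretions. Probasin is a secreted protein of the rodent prostate whose androgen-dependent promoter is widely used to drive transgenes there. The secretions of the mouse seminal vesicle are dominated by the Svs proteins, which clot to form the copulatory plug once the prostate transglutaminase TGM4 has joined them.

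Pbsn, which defined the classes, is given as a description only. Its log2 level was 15.71 in SVE replicate 1, 13.81 and 14.81 in UTY_sh replicates 2 and 3, and 15.06 in mNKX3.1+UTY_sh replicate 4. The poor libraries held 10.94, 6.59 and 6.43 in SVE, 9.69 and 10.02 in UTY_sh, and 5.29, 7.27 and 12.56 in mNKX3.1+UTY_sh. The 13.81 of UTY_sh replicate 2 lay just inside the threshold and the 12.56 of mNKX3.1+UTY_sh replicate 3 just outside it, so the levels ran on without a wide gap between the classes. PE grafts held 17.93, 17.86, 17.37 and 18.003, and mNKX3.1 grafts 17.69, 17.71, 17.96 and 17.72, above every library of either class. All 3 labelled groups contained both classes, so neither the hairpin nor the construct coincided with the split. In whole grafts, more prostate-type cells and more RNA per cell cannot be told apart.

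**Figure D1:**
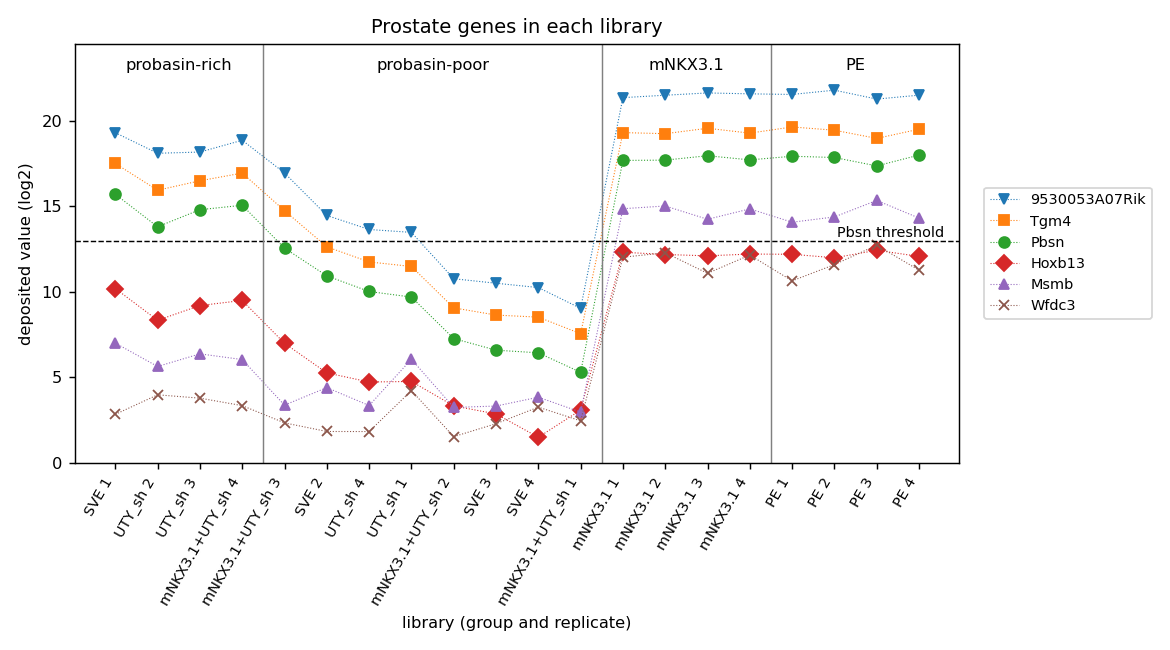
Deposited log2 level of 6 prostate genes in each of the 20 libraries, ordered by class and, within the poor class, by Pbsn, with the dashed line at the Pbsn threshold of 13. 9530053A07Rik, Tgm4 and Hoxb13 broadly step down with Pbsn from the rich to the poor libraries, whereas Msmb and Wfdc3 stay below 7.1 in all 12 and are above 10 in every PE and mNKX3.1 library.

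The start regions of 4 prostate genes are shown because 3 of them, Pbsn, Tgm4 and 9530002B09Rik, ran in parallel over the grafts described below, while Wfdc3 remained near the floor of the values in both classes. Each is the RefSeq sequence from 250 bases before to 50 after the gene's start (GRCm38.p6, matched by symbol; the deposited values were made on mm9). Capitals mark the letters AGAACA and their reverse complement TGTTCT, the core letters of the elements that androgen and glucocorticoid receptors bind, searched on both strands.
Pbsn, chrX:77853451-77853750, minus strand: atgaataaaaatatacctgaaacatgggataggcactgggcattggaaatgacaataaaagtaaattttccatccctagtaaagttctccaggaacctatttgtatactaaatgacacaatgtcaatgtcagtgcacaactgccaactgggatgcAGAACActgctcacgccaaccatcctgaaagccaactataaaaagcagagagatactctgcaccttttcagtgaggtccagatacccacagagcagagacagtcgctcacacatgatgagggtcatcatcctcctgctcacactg
Tgm4, chr9:123034491-123034790, plus strand: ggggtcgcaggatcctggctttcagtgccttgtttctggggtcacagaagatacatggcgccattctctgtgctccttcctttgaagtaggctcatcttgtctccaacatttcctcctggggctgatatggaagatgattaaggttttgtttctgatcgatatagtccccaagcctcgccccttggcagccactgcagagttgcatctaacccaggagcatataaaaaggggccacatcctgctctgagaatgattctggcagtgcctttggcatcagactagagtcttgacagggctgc
9530002B09Rik, chr4:122689009-122689308, plus strand: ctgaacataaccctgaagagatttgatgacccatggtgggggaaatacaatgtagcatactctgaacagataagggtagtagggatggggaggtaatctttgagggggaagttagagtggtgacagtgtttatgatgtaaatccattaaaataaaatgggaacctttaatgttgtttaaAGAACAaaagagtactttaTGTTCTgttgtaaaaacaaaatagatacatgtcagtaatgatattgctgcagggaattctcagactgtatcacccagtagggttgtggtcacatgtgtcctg
Wfdc3, chr2:164743218-164743517, minus strand: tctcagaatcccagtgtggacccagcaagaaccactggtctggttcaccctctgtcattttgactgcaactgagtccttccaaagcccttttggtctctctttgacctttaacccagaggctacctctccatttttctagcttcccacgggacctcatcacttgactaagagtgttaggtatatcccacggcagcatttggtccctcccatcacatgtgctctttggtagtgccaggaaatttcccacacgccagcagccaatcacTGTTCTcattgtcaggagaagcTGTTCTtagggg
The letters, which did not overlap each other, occurred 1 time in the Pbsn window, 0 times in that of Tgm4, and 2 times each in those of 9530002B09Rik and Wfdc3. Windows with at least 1 occurrence made up 21.4% (12 of 56) of the genes called higher in the rich libraries that had a promoter entry, beside 19.0% (6233 of 32851) of all promoters in the table. The first share counts genes, each scored if any of its windows held the letters. The second counts single windows, so the shares are not in the same unit.

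The rich libraries held a set of genes above the level of the poor ones, nearly all of them higher still in PE grafts, and no gene was lower by the same measure. A gene was called higher when each rich library exceeded every poor library of its own group, and exceeded their median by at least 1 on the log2 scale (2-fold). Of 12906 genes with a value of 5 or more in at least 4 of the 12 libraries, Pbsn left out, 78 were called higher (0.604%) and 0 lower (0%). Without UTY_sh replicate 2, the rich library with the least Pbsn, 118 were called higher and 1 lower, against 88 higher and 3 lower without UTY_sh replicate 3. Because the rule reads Pbsn in the same libraries, these counts describe the classes and carry no test. Without the size requirement the directions were even, with 833 genes (6.45%) above and 819 (6.35%) below all poor libraries of their own group. For 76 of the 78 genes every PE library lay above all 4 rich libraries. The same count was not made over all genes. By limma, in the fit described below, 31.8% of 13456 genes were higher in PE than in SVE. The PE mean of the 78 genes exceeded the median of the poor libraries by 2.20 or more, with a median of 5.33, a difference that shares its poor libraries with the call itself.

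Tgm4 and 9530053A07Rik had the largest differences of the called genes, by the smallest difference over the 4 rich libraries. Tgm4, the transglutaminase that cross-links seminal vesicle proteins into the copulatory plug, stood at 17.51 in SVE replicate 1, 15.94 and 16.50 in UTY_sh replicates 2 and 3, and 16.95 in mNKX3.1+UTY_sh replicate 4. In the 8 poor libraries its lowest, median and highest levels were 7.55, 10.27 and 14.75, so the classes did not overlap. The rich libraries exceeded their own poor median by 4.33 to 8.87 log2 units, and PE averaged 19.40 ± 0.29 (SD, n = 4).

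9530053A07Rik, known in the table by its clone name, was the most abundant of them. It reached 19.31 in SVE replicate 1, 18.11 and 18.18 in UTY_sh replicates 2 and 3, and 18.87 in mNKX3.1+UTY_sh replicate 4, against a lowest, median and highest level of 9.03, 12.12 and 16.96 in the poor libraries. Its relative Fcgbp, which encodes an IgG Fc-binding protein of mucus, was at 12.52, 11.11, 11.45 and 11.96 in the same order, against 4.83, 6.09 and 9.83. Reads may be divided between such similar genes in ways the table does not show. 9530002B09Rik, which RefSeq lists with the synonym Vpp1, held 14.24, 12.37, 13.36 and 13.60 in the rich libraries and 3.74, 7.08 and 11.16 as the lowest, median and highest of the poor ones. Azgp1, a secreted zinc-binding glycoprotein, held 10.04, 8.61, 9.17 and 9.60, against 2.77, 4.13 and 7.56. For each of these genes the lowest rich library exceeded the highest poor library, mNKX3.1+UTY_sh replicate 3, which was also the poor library with the most Pbsn.

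Several called genes have known parts in making or releasing secretions. Agr2, a disulfide isomerase of the endoplasmic reticulum in mucus-secreting cells, stood at 11.51 in SVE replicate 1, 9.63 and 10.56 in UTY_sh replicates 2 and 3, and 10.89 in mNKX3.1+UTY_sh replicate 4, beside 3.31, 4.82 and 8.50 as lowest, median and highest of the poor class. Fut9, a fucosyltransferase that makes the Lewis x glycan, stood at 10.39, 9.03, 9.33 and 9.81, beside 2.04, 4.39 and 7.69. Man1a, a Golgi mannosidase, was at 11.26 to 12.90 in the rich libraries, against 8.87 to 10.53 in the poor ones. Atp6v1c2, a subunit of the proton pump of acidic compartments, exceeded its own poor median by 3.92 to 7.36. Syt7, a calcium sensor of vesicle release, did so by 2.29 to 3.54.

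Metal handling and protease genes were also among those called. The zinc exporter Slc30a2 lay at 10.59, 9.03, 9.49 and 10.04 in the rich libraries in the order used above, against 5.57, 6.51 and 8.22 as lowest, median and highest of the poor libraries. The metallothionein genes Mt3 and Mt2, whose products bind zinc and copper, exceeded their own poor medians by 2.85 to 5.32 and by 1.13 to 2.92. Gm5077 and C1rb belong to the family of complement serine proteases, and exceeded theirs by 3.47 to 6.39 and by 3.32 to 5.06. Prdx6, a peroxidase of the cytosol, was at 15.10, 13.83, 14.31 and 14.58 in the rich libraries and between 12.04 and 13.17 in the poor ones, so a gene that all the grafts expressed was also higher.

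The growth factor gene Egf lay at 11.33, 10.25, 10.53 and 10.94 in the rich libraries, in the order SVE replicate 1, UTY_sh replicates 2 and 3, and mNKX3.1+UTY_sh replicate 4. Its poor libraries had 8.48, 8.73 and 9.53 as lowest, median and highest. Tmprss2, the androgen-regulated membrane serine protease, lay at 11.38, 10.29, 10.62 and 10.91, against 8.69, 8.88 and 9.58. Slc45a3, which encodes the prostate membrane protein prostein, lay at 9.98, 8.03, 8.96 and 9.37, against 6.13, 6.61 and 7.26. None of these 3 overlapped between the classes, which the call itself requires within each group.

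Mmp7 and Fam115e were called and had the order of Tgm4 over the rich libraries, with a larger drop in UTY_sh replicate 2. Mmp7, the metalloproteinase matrilysin, held 10.40 in SVE replicate 1, 9.53 in UTY_sh replicate 3 and 9.68 in mNKX3.1+UTY_sh replicate 4, but 6.97 in UTY_sh replicate 2, close to the 6.40 of the highest poor library. Fam115e likewise held 13.63, 12.61 and 12.73 in those 3 libraries and 9.91 in UTY_sh replicate 2, against a highest poor level of 8.89. UTY_sh replicate 2 thus lay well below UTY_sh replicate 3 for both, whereas its Tgm4 level of 15.94 was close to the 16.50 of UTY_sh replicate 3.

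Psca, a surface antigen of prostate and bladder epithelium, was higher in the rich libraries although it did not pass the test between PE and SVE grafts. It held 8.25, 7.30, 7.22 and 7.93 in the rich libraries and 3.49, 4.78 and 7.12 as lowest, median and highest of the poor ones, against 5.77 to 8.48 in PE. In the limma fit to all 20 libraries described below, PE differed from SVE for Psca by 1.52 (SE 1.11, adjusted p = 0.240). Psca and Gsdmc3 were the 2 called genes whose PE libraries did not all exceed the rich ones.

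Regulators of the urogenital sinus and prostate were measured next, since they mark which developmental programme an epithelium uses. 2 of 15 were called higher, Hoxb13 among them, and 0 lower, beside 0.604% and 0% of all 12906 genes. Hoxb13, a homeobox factor of the prostate and hindgut, stood at 10.20 in SVE replicate 1, 8.34 and 9.20 in UTY_sh replicates 2 and 3, and 9.50 in mNKX3.1+UTY_sh replicate 4. The poor libraries held 1.49 to 6.99 with a median of 4.03, down to the floor of the values, and PE 12.17 ± 0.19 (SD, n = 4).

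Foxa1, a pioneer factor that opens chromatin for the androgen receptor, was at 10.24, 9.56, 9.70 and 9.89 in the rich libraries, each above the poor libraries of its own group, by 0.43 to 1.06 over their median. The highest poor library of all, mNKX3.1+UTY_sh replicate 3 at 9.56, reached the lowest rich one. Ehf, an epithelial ETS factor, exceeded its own poor medians by 0.21 to 0.41, while Gata2 differed by -0.41 to -0.23. Of the Wolffian duct regulators, 0 of 11 were called in either direction, with list medians from -0.14 to 0.21 over the 4 rich libraries. Sall1, a zinc finger factor of the developing kidney, exceeded its own poor medians by 0.87 to 1.96 and was called when UTY_sh replicate 4 was left out. The homeobox genes Hoxa9 and Hoxa10 exceeded theirs by 0.43 to 1.49 and by 0.28 to 0.51. Pax2, which is needed for the Wolffian duct, was at 9.36, 9.41, 9.30 and 9.33 in the rich libraries, against 9.50 to 9.72 in the poor ones. PE held 4.28 ± 0.87 (SD, n = 4). The rich grafts thus held Hoxb13 together with Pax2, at -0.25 to -0.10 relative to their own poor medians.

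To see which prostate genes appeared, the excess of each rich library over its own poor median was expressed as a share of the PE level, on the linear scale. 62 prostate-graft genes, Pbsn included, were taken, with every PE library at 9 or more and at least 4 log2 units (16-fold) above the median of the poor libraries, a rule set after the values were seen. The median share was 25.03% in SVE replicate 1, 6.88% and 11.6% in UTY_sh replicates 2 and 3, and 16.0% in mNKX3.1+UTY_sh replicate 4. Pbsn itself was at 23.6%, 5.91%, 12.2% and 15.1%. Shares were close to each other within a library, with quartiles of 19.8% and 27.3% in SVE replicate 1, 5.76% and 8.33% in UTY_sh replicate 2, 9.29% and 13.1% in UTY_sh replicate 3, and 12.8% and 18.1% in mNKX3.1+UTY_sh replicate 4. For 44 of the 62 genes the share was within 1.5 times the library's median in all 4 rich libraries. Hoxb13, for example, was at 25.2%, 6.42%, 12.1% and 15.4%, and Tmprss2 at 27.6%, 9.58%, 13.6% and 17.8%. Pigr, the receptor that carries IgA across epithelia, had lower shares of 10.97%, 0.02%, 4.88% and 7.14%, and Mme, the membrane peptidase neprilysin, 9.05%, 2.73%, 4.78% and 5.67%, and neither was called.

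**Figure D2:**
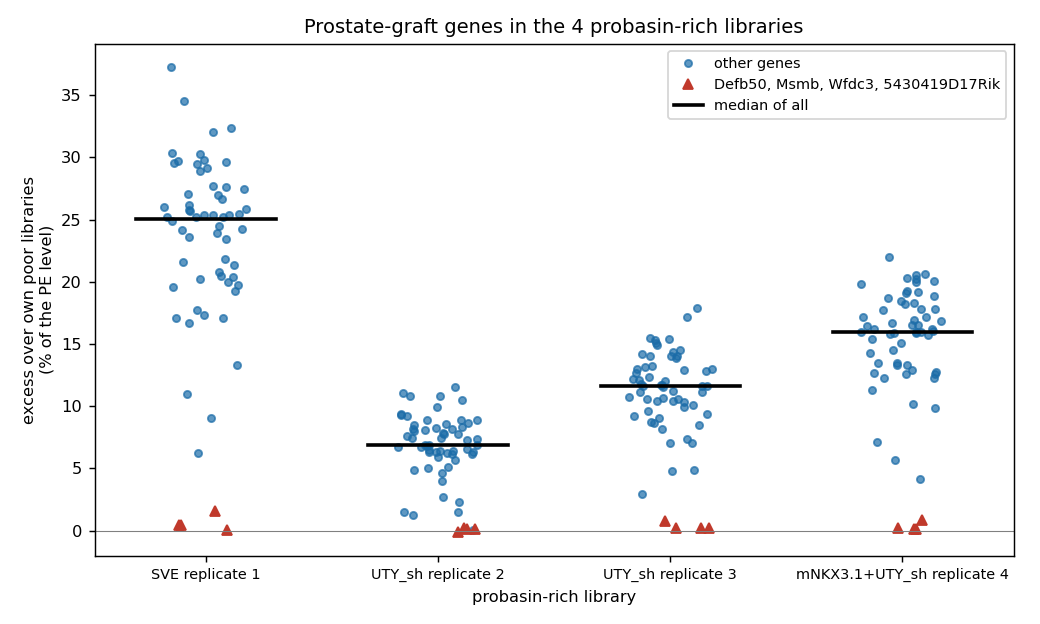
Excess of each rich library over the median of its own group's poor libraries, as a percentage of the mean PE level, for 62 prostate-graft genes (1 point a gene, spread sideways only to be seen, and a bar at the median). The medians are 25.03%, 6.88%, 11.6% and 16.0% from left to right, and the 4 genes drawn as red triangles lie below 2% in every library.

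4 prostate-graft genes stayed below 2% of the PE level in every rich library. Msmb, which encodes the secreted protein beta-microseminoprotein, was at 0.48%, 0.10%, 0.24% and 0.24%. Its log2 level was 7.003 in SVE replicate 1, 5.63 and 6.37 in UTY_sh replicates 2 and 3, and 6.04 in mNKX3.1+UTY_sh replicate 4, against 2.97, 3.36 and 6.06 as lowest, median and highest of the poor libraries and 14.07 to 15.35 in PE. Defb50, a beta-defensin gene, was at 1.55%, 0.10%, 0.76% and 0.90%, with levels of 8.63, 6.41, 7.91 and 7.85 in the rich libraries, 3.93 to 6.79 in the poor ones and 14.23 to 15.10 in PE. The classes overlapped for both, through UTY_sh replicate 1 among the poor libraries. Without that library both were called higher.

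Wfdc3, a gene of the whey acidic protein family, lay at 2.83, 3.98, 3.78 and 3.34 in the rich libraries and at 1.53 to 4.22 in the poor ones, against 10.64 to 12.73 in PE. 5430419D17Rik lay at 4.56, 4.36, 5.16 and 3.39, against 1.89 to 5.79, with 10.06 to 15.67 in PE. These 2 had too few values of 5 or more to enter the comparison over genes. The range of the 4 genes over the 4 PE libraries was 0.87 to 5.61 log2 units, and that of the 44 genes near the library median was 0.14 to 1.01, so Defb50, at 0.87, lay within the range of the 44. Some of the remaining genes also varied widely in PE, such as Fam115e with a range of 2.02.

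Sbp, the spermine-binding protein of the ventral prostate, followed another order again. It was at 3.19 in SVE replicate 1 and 3.19 in mNKX3.1+UTY_sh replicate 4, but at 7.68 and 8.33 in the rich UTY_sh replicates 2 and 3. The poor UTY_sh replicate 1 held 9.72, above every rich library, and the other poor libraries held 1.84 to 3.48. Among the PE grafts it ranged from 5.63 to 19.38. UTY_sh replicate 1 was also the highest of the 12 libraries for Wfdc3, at 4.22, and for 5430419D17Rik, at 5.79, and the highest poor library for Msmb and Defb50, with Pbsn at 9.69. Sbp has a close relative, Sbpl, with which reads may be shared. Counted over the prostate secretory list, 6 of the 13 members measured besides Pbsn were called higher (among them Tgm4, 9530053A07Rik, 9530002B09Rik, Azgp1 and Tmprss2) and 0 lower. The list's median differences were 3.87, 0.93, 1.99 and 3.69 in the 4 rich libraries. Over all 12906 genes the median lay between -0.0024 and 0.0028, and 0.604% were called higher and 0% lower.

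Seminal vesicle secretory genes, which check the labelled tissue, were among the most abundant transcripts in both classes. Svs2, the main clotting protein, was at 21.57 in SVE replicate 1, 21.93 and 22.17 in UTY_sh replicates 2 and 3, and 21.72 in mNKX3.1+UTY_sh replicate 4, against 21.92, 22.21 and 22.42 as lowest, median and highest of the poor libraries. On the linear scale these rich libraries held 57.1%, 82.7%, 98.1% and 73.3% of their own poor median. Svs6 held 43.6%, 77.5%, 103% and 55.2%, and Sva, another seminal vesicle protein, 39.8%, 70.3%, 104% and 53.8%. Over the 12 genes of the list in the table, 0 were called, 5 lay below all poor libraries of their own group in every rich library (Svs1, Svs3a, Svs4, Svs5 and Dnase2b), and the list's median difference was -0.74, -0.27, -0.03 and -0.47. Over all genes, 6.35% lay below in this way. UTY_sh replicate 3 had more Pbsn than UTY_sh replicate 2 but a smaller shortfall of the Svs genes. In PE, Svs2 was at 13.86 to 17.32 and Svs6 at 7.32 to 9.51. The 50 most abundant genes took 58.0% to 65.1% of the reads in the rich libraries, 61.9% to 67.8% in the poor ones and 36.0% to 38.2% in PE.

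Epithelial genes common to both tissues differed little. In the luminal epithelium list 1 of 13 was called (Psca), and Epcam and Cd24a, which encode epithelial surface proteins, exceeded their own poor medians by 0.29 to 0.87 and by 0.46 to 0.73. In the basal epithelium list 0 of 9 were called. Of 24 genes of the androgen response, 3 were called higher (among them Tmprss2 and Slc45a3) and 0 lower, and the list's median differences lay between -0.04 and 0.10. In the endoplasmic reticulum stress list 0 of 14 were called, and 4 members lay above all poor libraries of their own group, among them the disulfide isomerase gene Pdia6 by 0.38 to 1.18, Pdia4 by 0.30 to 0.49 and Creld2 by 0.16 to 0.67. The chaperone gene Hspa5 differed by -0.12 to 0.21. Over all 12906 genes, 0.604% were called higher, 0% were called lower, and 6.45% lay above all poor libraries of their own group.

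Markers of other cells were compared between the classes in the same libraries. Their calls were 0 of 10 for smooth muscle, 0 of 10 for fibroblast and matrix, 0 of 10 for leukocyte and 0 of 10 for endothelium. They were 0 of 6 for adipocyte, 0 of 3 for kidney, 0 of 4 for urothelium and 0 of 4 for skeletal muscle. Over all 12906 genes, 0.604% were called higher and 0% lower. At that share, lists of this size hold few calls or none, so such counts do not show an absence of difference. The summed log2 level of the smooth muscle list was 17.02 to 17.60 in the rich libraries and 16.84 to 17.52 in the poor ones, that of the fibroblast and matrix list 14.14 to 14.50 and 14.11 to 14.62, and that of the leukocyte list 12.48 to 12.55 and 12.46 to 12.65. Adipocyte genes varied with the library and not with the class, with median differences of -1.12 in SVE replicate 1, -0.18 and 0.80 in UTY_sh replicates 2 and 3, and 0.55 in mNKX3.1+UTY_sh replicate 4. The kidney, nerve and red blood cell lists had most members below the minimum level, among them the kidney markers Umod and Aqp2 and the nerve marker Sox10. The 1 nerve gene and the 1 red blood cell gene measured were not called. Proliferation (0 of 8), interferon response (0 of 13), immediate early and heat shock (0 of 11), Y chromosome (0 of 4) and histone H3K9 and H3K27 enzyme genes (0 of 14) gave no call in either direction.

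**Figure D3:**
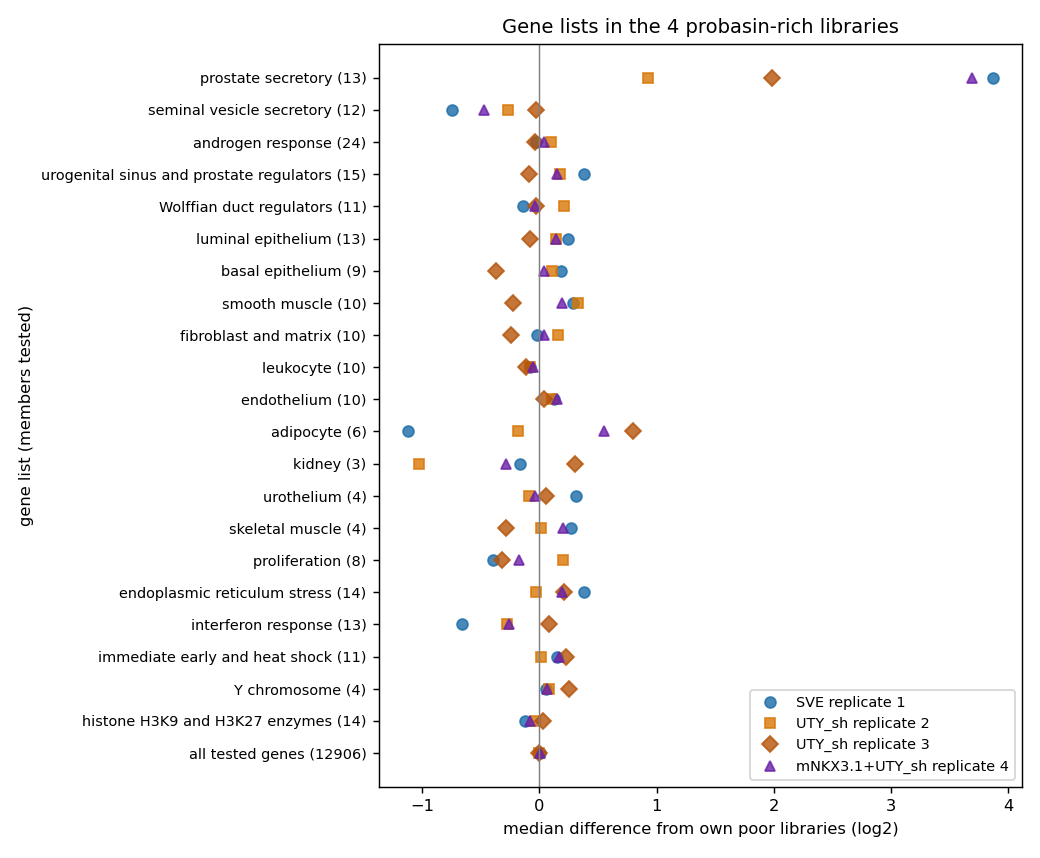
Median over the measured members of each gene list (their number in brackets) of the difference between a rich library and the median of its own group's poor libraries, on the log2 scale, with 1 symbol for each of the 4 rich libraries. The prostate secretory list lies at 0.93 to 3.87 and the seminal vesicle secretory list at -0.74 to -0.03, while all genes lie between -0.0024 and 0.0028.

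Neither Uty, the gene the hairpin is named for, nor Ehmt2 was called. Uty, which lies on the Y chromosome and is a relative of the histone demethylase gene Kdm6a, was at 9.55 in SVE replicate 1, 9.22 and 9.52 in UTY_sh replicates 2 and 3, and 9.29 in mNKX3.1+UTY_sh replicate 4. The poor libraries held 9.27, 9.04 and 9.29 in SVE, 9.16 and 8.98 in UTY_sh, and 9.12, 9.12 and 9.09 in mNKX3.1+UTY_sh. Each rich library exceeded its own poor median by 0.15 to 0.45. It also lay above all poor libraries of its own group, as was so for 6.45% of all genes. The libraries with the hairpin thus overlapped those of SVE. The other groups without the hairpin lay above every library of both classes, with mNKX3.1 at 10.07 to 10.31 and PE at 10.13 to 10.45. The cause of that difference was not tested. Ehmt2, which encodes the histone methyltransferase G9a, differed by -0.09 to 0.09.

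The threshold does not order the poor libraries, so the variation of Pbsn among them could be fitted. The genes were filtered over all 12 libraries, so some entered only with the rich ones counted. Pnliprp1, Hoxb13, Azgp1, Fgl1, Fut9 and 9130019P16Rik were among these. The fit is therefore not free of the rule. Within the 8 poor libraries a gene's level was fitted on that of Pbsn with a mean for each group, by limma with a variance trend and 4 residual degrees of freedom, and p-values were adjusted by Benjamini-Hochberg over all 12906 genes. 20 genes rose with Pbsn (0.155%) and 1 fell (0.00775%) at an adjusted p under 0.05, and 590 genes of either direction had an unadjusted p under 0.05. Tgm4 rose by 0.98 log2 units per log2 unit of Pbsn (SE 0.025, adjusted p = 6.14e-08), 9530002B09Rik by 0.99 (SE 0.031, adjusted p = 2.28e-07) and 9530053A07Rik by 1.05 (SE 0.034, adjusted p = 2.28e-07). A slope of 1 means that a gene kept its ratio to Pbsn down to the lowest libraries. Tgm4 exceeded Pbsn by 1.69 to 2.14 in the rich libraries, 1.51 to 1.71 in PE and 1.70 to 2.26 in the poor libraries.

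Further genes rose with lower slopes. For some of them poor values reached down towards the floor, where slopes are understated, as for Hoxb13 from 1.49 and Agr2 from 3.31. Fam115e rose by 0.80 (SE 0.044, adjusted p = 2.59e-05), Agr2 by 0.71 (SE 0.055, adjusted p = 3.65e-04), Atp6v1c2 by 0.68 (SE 0.053, adjusted p = 3.65e-04) and Glb1l3 by 0.58 (SE 0.049, adjusted p = 7.24e-04). Fcgbp, Fgl1, Fut9, 5330417C22Rik, Azgp1, Vnn1, Gm5077, Pnliprp1, Hoxb13, Col4a6 and 9130019P16Rik also passed, Hoxb13 by 0.61 (SE 0.077, adjusted p = 0.0112). Hoxb13 was called in 6, and Azgp1 and Fut9 each in 7, of 9 fits that left out 1 or 2 libraries. Rec8, a meiotic cohesin subunit, fell by 0.21 (SE 0.031, adjusted p = 0.0380), and it was called in 1 of 9 fits that left out 1 or 2 libraries. Its levels in the rich libraries were 6.66, 5.28, 6.17 and 6.18, against 5.06 to 6.79 in the poor ones, so the classes overlapped. These slopes and the differences between the classes share the poor libraries.

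The count of slope calls depended on mNKX3.1+UTY_sh replicate 3, the poor library richest in Pbsn. 7 genes passed without it, 13 without SVE replicate 2 and 37 without SVE replicate 3. Tgm4, 9530002B09Rik, 9530053A07Rik and Fam115e passed in all 9 such fits. Msmb had a slope of 0.08 (SE 0.114, adjusted p = 1.0), Defb50 0.11 (SE 0.076, adjusted p = 1.0), Svs2 -0.01 (SE 0.107, adjusted p = 1.0) and Pax2 -0.01 (SE 0.014, adjusted p = 1.0), and limma called none of these 4. Foxa1 had 0.05 (SE 0.018, adjusted p = 0.953). The 95% interval of the Msmb slope, -0.17 to 0.34, lay below that of Tgm4, 0.92 to 1.03. Msmb had a median of 3.36 in the poor libraries, near the floor, where slopes are understated. Its interval thus cannot show whether it follows Pbsn.

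**Figure D4:**
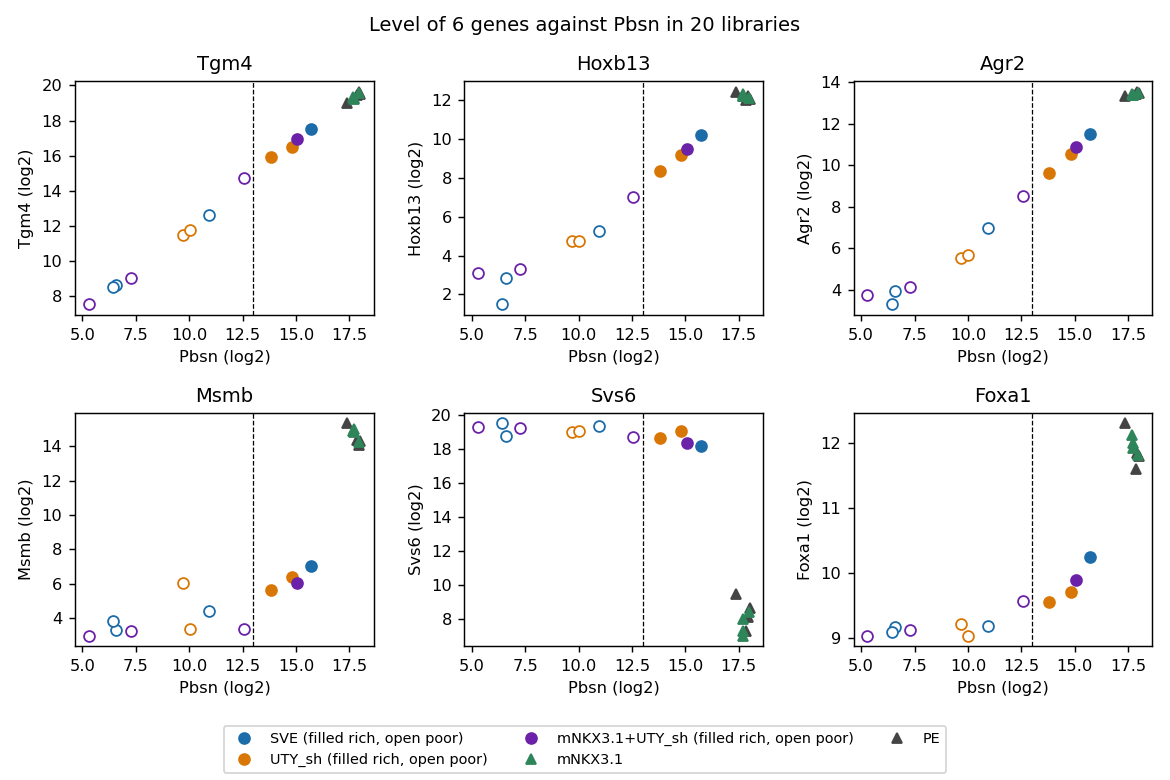
Log2 level of 6 genes against that of Pbsn in the 20 libraries, with filled circles for rich, open circles for poor and triangles for PE and mNKX3.1, and a dashed line at the threshold of 13. Tgm4 follows Pbsn from 5.29 to 18.003, Hoxb13 and Agr2 flatten at low Pbsn, Msmb is at most 7.003 in the rich grafts, and Svs6 stays between 18.20 and 19.54 in all 12 seminal vesicle type grafts.

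Because the rich libraries fall in each labelled group, the comparisons of the groups hold them too. PE against SVE was fitted by limma in all 20 libraries with 1 mean per group over 13456 genes. 4275 genes (31.8%) rose in PE and 4087 (30.4%) fell. Tgm4 was at 19.40 in PE and 11.83 in SVE on average, a rise of 7.57 (SE 1.93, adjusted p = 0.00239). Without the 4 rich libraries, which were chosen by Pbsn, the difference was 9.47 (SE 1.28). For Hoxb13 the rise was 7.22 (SE 1.57, adjusted p = 5.98e-04), with a difference of 8.97 (SE 0.83) without the rich libraries. Msmb, which the rich libraries hold at low level, rose by 9.89 (SE 0.76, adjusted p = 3.75e-09), with a difference of 10.68 (SE 0.48) without them.

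UTY_sh against SVE gave 0 calls of 13456 (0%) by limma, with 316 genes at an unadjusted p under 0.05. mNKX3.1+UTY_sh against SVE also gave 0 (0%), with 557. Pbsn differed by 2.16 (SE 1.96, adjusted p = 0.999) in UTY_sh and by 0.13 (SE 1.96, adjusted p = 1.0) in mNKX3.1+UTY_sh. With the rich libraries left out both comparisons again gave 0 calls, with 435 and 633 genes at an unadjusted p under 0.05.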

How the data were processed

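Libraries were made from poly-A RNA with the Illumina TruSeq kit, per the labels' protocols. According to the submitters' processing notes the software included Cufflinks 2.0.2, TopHat2 2.0.4, DESeq and bcl2fastq 1.8.4, on mm9. How reads were counted, with which annotation, and what was done with rat reads is not given in the sources used here. In the table that the authors deposited, expression is given as log2 values, 1 for each of 23284 genes in each library. Antilogs of values between 11 and 13 came out as whole numbers of a library's step size in 100% of cases (tolerance 0.1), and that step gave the depths. Low values were compressed towards a floor, so differences near it are understated and no count test was run.

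Rich and poor libraries, chosen by Pbsn, were compared without a test, each rich library against the median of its own group's poor libraries. The plan had assumed 3 rich and 9 poor libraries, and the threshold of 13 gave 4 and 8. Slopes and group comparisons were fitted by limma 3.58.1 in R 4.3.3 with a variance trend and Benjamini-Hochberg adjustment, and called at an adjusted p under 0.05, after the code was tested on simulated data. Genes needed a value of 5 in 4 libraries. The classes, the 23 gene lists and the tests were chosen with earlier results of these data known. Named genes are Pbsn, the 15 called genes with the largest smallest difference, the secretory lists, up to 3 members of each other list, the slope genes of smallest p, and others chosen after their values were seen (such as Mmp7, Egf, Prdx6, Slc30a2, Man1a, Syt7 and Mt2). Some genes that the rule selects are left out of the text. Alternatives were the Pbsn threshold, the size of difference, filters, a common median, pooled poor libraries, the group term, the trend and leaving out libraries. Promoters are from RefSeq.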

Additional observations from a re-analysis of the deposited data

Results flagged for a closer look

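Over 32 genes and 5 groups of 4 libraries, 160 sets of values were examined, and 14 held 1 library that stood apart from the other 3 by more than Dixon's 95% value. Genes taken without regard to their values would give about 1 in 20. Many of the 32 genes were printed because they separated the rich libraries, so the count cannot be set against that share. For the called genes Egf and Slc45a3, the call already placed SVE replicate 1 above its group. All values are log2 levels. In the seminal vesicle type grafts the rich library stood above the rest of its group: SVE replicate 1 for Egf at 11.33, for Foxa1 at 10.24 and for Slc45a3 at 9.98, and mNKX3.1+UTY_sh replicate 4 for Msmb at 6.04 and for Defb50 at 7.85. PE replicate 3 stood apart for Tmprss2 at 12.69, Slc30a2 at 11.74 and Svs2 at 13.86, where it was the lowest of its group, and for Mme, which encodes the membrane peptidase neprilysin, at 13.96, where it was the highest. mNKX3.1 replicate 3 was the highest of its group for Pbsn at 17.96, and the lowest for Sbp at 8.46, 5430419D17Rik at 10.71, Pigr at 10.35 and Adipoq at 7.05. The share of the PE level of Tmprss2, Slc30a2 and Mme rests in part on PE replicate 3.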

How the results depend on the processing

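No paired analysis was possible because the labels give no replicate numbers. The 78 genes higher in the rich libraries were 156 with a difference of at least 0.5, 41 with at least 2, 50 with a minimum value of 7 and 135 when only the mean difference had to reach 1. Leaving out 1 library at a time gave 78 to 118. The 0 genes lower were 1 with a Pbsn threshold of 14 (Styk1), 2 with a difference of at least 0.5, 2 without the 2 libraries nearest the threshold, 5 by the mean difference and 0 to 3 with 1 library left out. The mean difference and the omission of the 2 nearest libraries were chosen after the data were seen. The 21 slope calls were 12 with a minimum value of 7, 11 without the 2 libraries farthest from the median of Pbsn, and 7 to 37 with 1 library left out. The cause was not tested. Of such counts and summaries, 110 stayed within 1.5 times the main value and 16 did not, a rule that does not read direction. For single genes, 1530 values were unchanged and 16 moved by at least their spread over the poor libraries. Another 21 lost a limma call and 3 gained one, and no called gene changed sign. PE against SVE gave 8362 calls, 6971 with only those 2 groups, and UTY_sh and mNKX3.1+UTY_sh against SVE gave 0 by limma under every alternative run, with 181 to 1058 genes at an unadjusted p under 0.05. Depth limits the genes near the floor of the values, where both classes of Wfdc3 lie.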
